A study of Homo sapiens with 72 samples.

Results

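H3K27me3, the trimethylation of lysine 27 of histone H3, was compared between REH leukemia cells with and without bryostatin. The comparison holds 6 Cut&Tag libraries of the 72 samples in the series, 3 from untreated REH and 3 from REH treated with bryostatin, chosen by cell line and antibody from the sample labels. REH is an established B cell precursor acute lymphoblastic leukemia line, so every value describes a single line in culture. The treated cells received 1 nM bryostatin at 37°C overnight according to the sample notes, and the untreated cells received no agent. A figure legend of the study gives a full day of treatment instead. In Cut&Tag an antibody to a histone mark guides a transposase, which inserts sequencing adaptors into the DNA nearby. The labels number the replicates without saying whether they came from separate cultures, so the p-values measure the spread between these libraries, which may be technical.

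H3K27me3 is written by Polycomb repressive complex 2 and lies over genes that are held silent, often in broad domains around CpG-rich starts. In blood cells it covers the HOX clusters and the regulators of other tissues and lineages. H3K4me3 and H3K4me2 mark starts and enhancers that are active or poised, and a start that carries H3K4me3 and H3K27me3 together is called bivalent. Bryostatin binds the diacylglycerol site of protein kinase C, whose activation is known to induce immediate early genes such as EGR1 and FOS. The comparison asks where the repressive mark was higher or lower after the drug. Defining markers of precursor B cells were checked by their peaks within 1 kb of a start. H3K4me3 was called in all 6 REH libraries of that mark at 10 of 12 precursor B cell markers, among them PAX5, EBF1 and CD22, and H3K27me3 at 0 of 12. Of 8 T cell markers, 1 (BCL11B) had H3K4me3 in all 6 libraries and 4 had H3K27me3 in at least 1.

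The 300 bases around 4 gene starts are printed as examples of starts where H3K27me3 was lost or its maximum was lower after bryostatin. They run from 250 bases before to 50 bases after the start in RefSeq (GRCh38.p14), 5′ to 3′ on the gene's strand, and each lies within a region described later. EGR1 (chr5:138465229-138465528, plus strand) encodes a zinc finger transcription factor of the immediate early response, and capitals mark its 2 CArG boxes, the motif that serum response factor binds. VGF (chr7:101165520-101165819, minus strand) encodes a secreted neuropeptide precursor, and capitals mark the cyclic AMP response element TGACGTCA.
EGR1: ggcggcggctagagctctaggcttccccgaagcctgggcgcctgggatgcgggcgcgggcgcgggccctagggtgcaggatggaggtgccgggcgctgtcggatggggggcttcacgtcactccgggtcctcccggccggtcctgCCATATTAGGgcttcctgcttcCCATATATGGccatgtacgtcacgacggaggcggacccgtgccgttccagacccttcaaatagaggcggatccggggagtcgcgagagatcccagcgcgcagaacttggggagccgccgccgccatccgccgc
VGF: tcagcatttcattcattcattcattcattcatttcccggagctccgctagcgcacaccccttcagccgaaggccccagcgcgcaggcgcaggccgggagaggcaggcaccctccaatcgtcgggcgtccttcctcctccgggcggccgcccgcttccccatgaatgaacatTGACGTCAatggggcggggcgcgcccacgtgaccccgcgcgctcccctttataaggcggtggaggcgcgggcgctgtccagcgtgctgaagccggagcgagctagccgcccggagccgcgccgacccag
In the next pair the capitals mark CpG dinucleotides. APCDD1 (chr18:10454385-10454684, plus strand) encodes a membrane inhibitor of Wnt signalling and AHNAK (chr11:62545777-62546076, minus strand) a very large scaffold protein.
APCDD1: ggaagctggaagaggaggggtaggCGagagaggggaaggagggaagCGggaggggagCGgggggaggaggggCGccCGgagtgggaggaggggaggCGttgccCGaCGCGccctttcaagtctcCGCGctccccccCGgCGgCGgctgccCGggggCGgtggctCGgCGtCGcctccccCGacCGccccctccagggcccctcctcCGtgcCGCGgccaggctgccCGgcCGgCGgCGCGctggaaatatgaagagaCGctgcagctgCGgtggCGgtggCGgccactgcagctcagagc
AHNAK: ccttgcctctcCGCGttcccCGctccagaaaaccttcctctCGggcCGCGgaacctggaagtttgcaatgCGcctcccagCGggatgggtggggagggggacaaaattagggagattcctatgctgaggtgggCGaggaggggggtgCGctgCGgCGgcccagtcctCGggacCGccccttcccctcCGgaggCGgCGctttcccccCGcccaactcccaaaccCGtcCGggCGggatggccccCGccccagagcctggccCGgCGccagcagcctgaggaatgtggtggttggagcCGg
The windows of EGR1 and APCDD1 each held 33 CpG, that of VGF 35 and that of AHNAK 25, against a median of 14 over the 35116 RefSeq start windows of the same length. CArG boxes occurred on either strand in 1.29% of all windows and TGACGTCA in 1.85%. Further motifs were searched on both strands, TGANTCA (7.71% of windows) and GCGTGGGCG (0.795%), and neither occurs in these 4 windows.

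The number of peaks and the called length did not separate treated from untreated REH. Untreated replicates 1, 2 and 3 held 48473, 18833 and 17616 peaks, and bryostatin replicates 1, 2 and 3 held 17131, 43234 and 46491. The called length was 231, 106 and 45.3 Mb in the untreated and 89.9, 118 and 140 Mb in the treated libraries. The groups overlapped in both measures, with exact two-sided permutation p of 1 for peaks and 0.9 for length, where 3 libraries against 3 cannot go below 0.1. The mean signal per called base was 67.3 ± 37.9 RPKM (SD, n = 3) in untreated and 56.0 ± 3.02 RPKM in treated REH (exact p = 0.9). Over the 6 measures tested, the smallest Benjamini-Hochberg adjusted value was 1. Untreated replicate 3 stood apart, with 15.2 M mapped reads against 22.4 to 38.9 M in the others and a mean signal of 110 RPKM against 37.6 to 59.3. Its log2 region totals correlated with those of the other libraries at 0.856 to 0.899 (Pearson) across regions that share these libraries, and the other pairs at 0.947 to 0.973. Many counts and medians over regions and lists are therefore also given without it.

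Merging the peaks of the 6 libraries wherever they shared 1 bp or more gave 51497 regions on chromosomes 1 to 22 and X (hg38). Of these, 8319 (16.2%) were called in all 6 libraries and 18107 (35.2%) in 1 library. The groups overlapped at the regions of highest signal. The highest, inside TTC34 (chr1:2648591-2700700), had total signals of 30628, 31393 and 29922 RPKM kb in untreated and 32014, 34967 and 28488 in treated REH. Here the total signal is the sum of the RPKM coverage over the called bases, in RPKM kb (mean RPKM times called kb). RBFOX3, a neuronal splicing factor (chr17:79231861-79499170), came next with 22780, 24292 and 29806 RPKM kb against 23265, 27142 and 29428. At GATA2, a regulator of blood stem cells and megakaryocytes (chr3:128465081-128500500), the totals were 8518, 8957 and 16104 RPKM kb untreated and 7072, 8961 and 10512 treated, with an unadjusted limma p of 0.435. The others among the 10 highest were the regions of PRRX2 and PTGES, GALNT18, the lncRNA DRAIC, PDGFB, IGF2 and INS, and 2 regions of lncRNAs. Their log2 changes lay between -0.21 and 0.03, and 0 of the 10 reached an adjusted p below 0.05.

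No region passed the test on total signal. Totals were taken as log2, each library was shifted to a median of 0, and limma compared the groups in the 8319 regions called in all 6 libraries. The count past an adjusted p of 0.05 was 0 (0% of regions), and 173 regions were lower (2.08%) and 43 higher (0.517%) at an unadjusted p below 0.05. In 316 regions (3.8%) the treated libraries all lay below the untreated ones, and in 254 (3.05%) all above. The median change over all tested regions was -0.04 on the log2 scale, with 4700 below 0. Without untreated replicate 3, 11607 regions were called in the 5 remaining libraries, of which 257 were lower (2.21%) and 244 higher (2.10%) at an unadjusted p below 0.05. The groups were then apart in 673 lower and 1411 higher regions, and the median was 0.06. The excess of lower regions was thus small or absent without that library, in a fit that also took in regions not called in it. With all 6 libraries the smallest limma adjusted p was 0.102. On called length, limma called 0 regions (3 at an unadjusted p below 0.05).

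The 5 lower regions with the smallest p fail the adjustment and are described by their values. The APCDD1 start region (chr18:10453151-10459820) had totals of 666, 659 and 964 RPKM kb in untreated and 176, 146 and 195 in treated REH. All 3 treated libraries lay below all 3 untreated ones, and the log2 difference was -2.24 (SE 0.32, limma adjusted p = 0.102). At SORD, which encodes sorbitol dehydrogenase (chr15:45033621-45042610), the totals were 527, 525 and 645 RPKM kb untreated and 165, 140 and 138 treated, a log2 difference of -2.04 (SE 0.31, limma adjusted p = 0.102). The groups were again apart. A region 8947 bp from the lncRNA LINC02038 (chr3:193852971-193875590) had 1231, 1047 and 1174 RPKM kb against 367, 338 and 560 (log2 difference -1.59, SE 0.25, limma adjusted p = 0.102). At TMEM233, a transmembrane protein gene (chr12:119590931-119599060), the totals were 873, 856 and 1542 RPKM kb against 312, 260 and 224 (-2.10, SE 0.37, limma adjusted p = 0.221). SMAGP, which encodes a small adhesion glycoprotein (chr12:51267151-51273440), had 364, 289 and 420 RPKM kb against 93.3, 130 and 96.4 (-1.86, SE 0.33, limma adjusted p = 0.221). In each of the 5 all untreated libraries lay above all treated ones. This largely follows from choosing the smallest p in the same 6 libraries and is no further support.

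The 5 higher regions with the smallest p had smaller differences, and none of them held a gene start. The one of smallest p, 145284 bp from the start of TMEM135 (chr11:87464351-87470500), had totals of 161, 105 and 71.5 RPKM kb in untreated and 211, 188 and 202 in treated REH. The treated libraries lay above the untreated ones, with a log2 difference of 0.80 (SE 0.26, unadjusted p = 0.0104, limma adjusted p = 1). The others lay near LINC01648 (0.87), the lncRNAs ENSG00000231078 (0.81) and ENSG00000284739 (0.85), and inside KIR3DL1 (0.70), which encodes an inhibitory receptor of NK cells. Untreated replicate 3 had the lowest total in each of these 5 regions. In the fit without it the log2 differences were, in the same order, 0.77, 0.76, 0.92, 0.70 and 0.64. The part of that library in the differences was not tested further. At the KIR3DL1 region (chr19:54818131-54831150) 930 bp were called in untreated replicate 3, against 5620 and 12090 bp in the other untreated and 8610 to 11770 bp in the treated libraries.

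**Figure D1:**
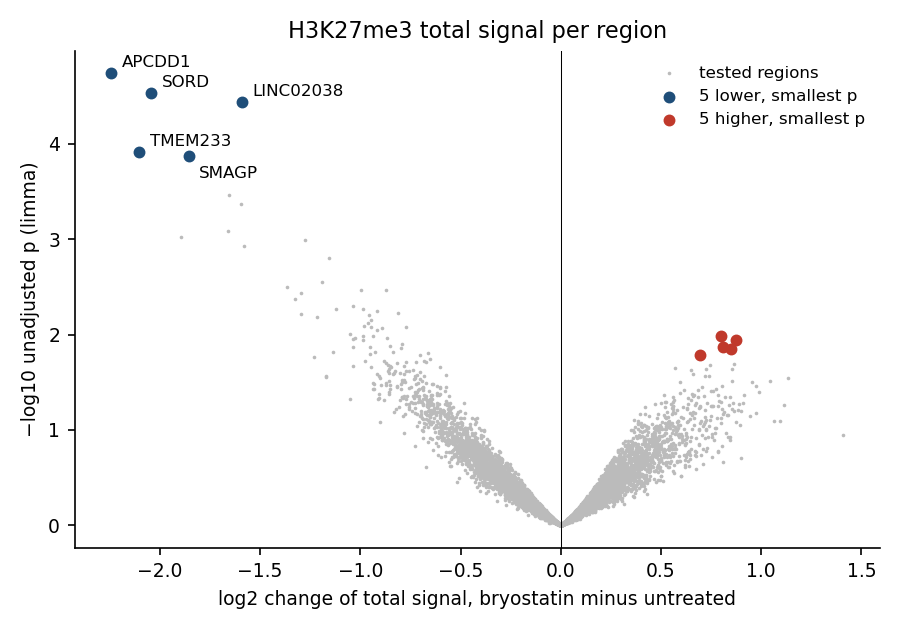
log2 difference in H3K27me3 total signal (bryostatin minus untreated, x axis) against −log10 of the unadjusted limma p (y axis) for the 8319 regions called in all 6 libraries. The 5 lower regions of smallest p stand at differences of -2.24 to -1.59, the 5 higher ones at 0.70 to 0.87, and none passes the adjusted threshold.

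The maximum signal of a region, its highest RPKM value, was tested in the same way as an alternative to the total. By this measure H3K27me3 fell in 19 regions (0.228% of 8319) and rose in 1 (0.012%) at a limma adjusted p below 0.05. In all 19 the treated libraries lay below the untreated ones, which largely follows from passing this test on the same libraries. Of the 19, 15 had a protein-coding start within 1 kb, a share of 78.9% against 28.2% of all tested regions. Leaving out each library in turn, a setting added after the data were seen, kept between 11 and 17 of the 19 past the threshold, and 14 without untreated replicate 3. The log2 difference was below 0 for all 19 in each of these 6 fits, which follows from groups that do not overlap and is no further support.

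APCDD1 differed most, with maxima of 683, 752 and 1303 RPKM in untreated and 187, 204 and 216 RPKM in treated REH. Its mean was 4.51-fold higher in untreated cells, and the log2 difference was -2.10 (SE 0.17, limma adjusted p = 2.89e-07). At the VGF start, which NAT16 shares (chr7:101162711-101181750), the maxima were 573, 616 and 1283 RPKM against 245, 282 and 225 RPKM (-1.61, SE 0.19, limma adjusted p = 7.38e-05). The called length of the VGF region was 15690 to 18890 bp untreated and 17940 to 18160 bp treated, so the groups overlapped in length while their maxima did not. TMEM233 had 549, 585 and 1178 RPKM against 263, 200 and 182 RPKM (-1.75, SE 0.20, limma adjusted p = 7.38e-05). SMAGP, SORD and the region near LINC02038 passed this test as well, with log2 differences of -1.55, -1.30 and -1.06. At these regions the plot of maximum signal shows 3 separate points per group with a gap between the groups.

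Genes of signalling and of the cytoskeleton were among the others. RASD2, a small GTPase gene (chr22:35540011-35543370), had maxima of 198, 283 and 401 RPKM in untreated and 107, 85.9 and 95.6 RPKM in treated REH, a log2 difference of -1.55 (SE 0.20, limma adjusted p = 0.000313). AHNAK (chr11:62542141-62550880) had 449, 576 and 935 RPKM against 236, 335 and 256 RPKM (-1.18, SE 0.18, limma adjusted p = 0.0022). The formin gene FHOD1, whose region also holds the SLC9A5 start (chr16:67247151-67252200), had 329, 363 and 777 RPKM against 219, 196 and 213 RPKM (-1.10, SE 0.19, limma adjusted p = 0.00581). Groups did not overlap at any of these. MTSS1, which encodes an actin-binding membrane protein, and the phosphoinositide kinase adaptor gene EFR3B fell by 1.19 and 1.00 on the log2 scale. TRNP1, a nuclear protein gene of neural progenitors, fell by 1.44.

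Regulators of transcription and cell death also lay in the set. HMGA2, an architectural chromatin protein gene (chr12:65822531-65828430), had maxima of 264, 323 and 467 RPKM in untreated and 178, 172 and 170 RPKM in treated REH (-0.97, SE 0.18, limma adjusted p = 0.0105). BCL2L11, which encodes the pro-apoptotic protein BIM (chr2:111115561-111121200), had 344, 339 and 474 RPKM against 219, 209 and 166 RPKM (-0.94, SE 0.19, limma adjusted p = 0.0255). A region inside SKI, a repressor of TGF-beta signalling, fell by 0.97. The remaining members were a pair of regions of the ubiquitin ligase gene ZNRF1, 1 of them with the WDR59 start, a region inside the netrin receptor gene UNC5A, and the lncRNA starts PP7080 and SLC9A3-AS1, with log2 differences of -1.15 to -0.90. The region that rose lay inside LOXHD1, a gene of inner ear hair cells (chr18:46498791-46512590), with 190, 123 and 158 RPKM against 312, 372 and 355 RPKM (1.17, SE 0.21, limma adjusted p = 0.00886). Its total signal was 545, 361 and 158 RPKM kb against 476, 403 and 461, where the groups overlapped.

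**Figure D2:**
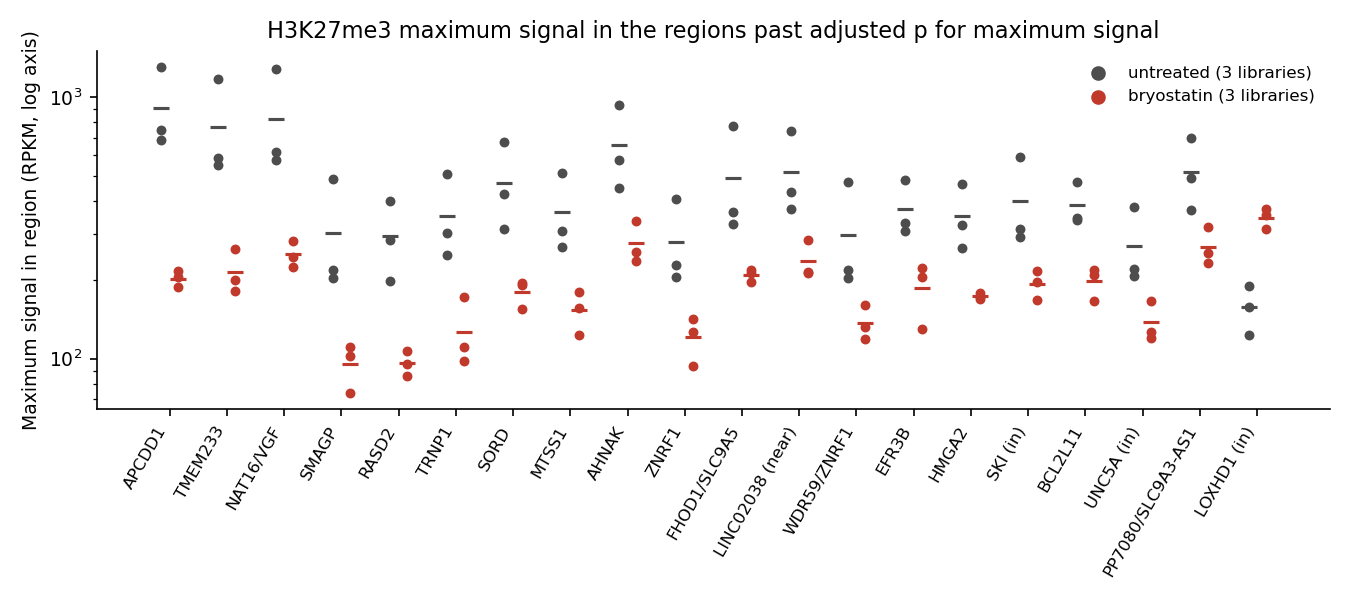
Maximum H3K27me3 signal (RPKM, log axis) in the 20 regions past the adjusted limma p for this measure, ordered by log2 difference from APCDD1 (-2.10) to LOXHD1 (1.17). Points are libraries and dashes are group means, "in" and "near" mark regions inside a gene or near its start, and in the 19 regions that fell all treated points lie below all untreated ones.

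Base composition and position, which the test did not use, were compared between groups of regions. The 19 regions had a median GC content of 55.1% and an observed to expected CpG ratio of 0.525, against 48.0% and 0.227 over all tested regions. Their median width was 6670 bp against 9300 bp. For the 19 regions these values and the share with a start were not computed without untreated replicate 3. The 173 regions with lower total signal at an unadjusted p below 0.05 had a protein-coding start in 61.3% of cases and a CpG ratio of 0.466. The 43 higher ones had 16.3% and 0.202. Without untreated replicate 3 this contrast was not seen, with a start in 20.2% of the 257 lower and 21.3% of the 244 higher regions and CpG ratios of 0.192 and 0.231. Tested regions with a protein-coding start had a median log2 difference in total signal of -0.13 (1616 of 2344 below 0), and those without one -0.01 (3084 of 5975 below 0). Without untreated replicate 3 these medians were 0.08 and 0.06. With the depth of the library as a covariate in limma, 29 regions (0.349%) passed the adjusted threshold on total signal, 16 of which were among the 20 called by the maximum.

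The presence of a peak gave 5 regions that were called in 3 of 3 untreated and 0 of 3 treated libraries, and 5 with the opposite pattern. EGR1 carried the highest of the lost regions (chr5:138464251-138471630), with totals of 227, 148 and 195 RPKM kb in the untreated libraries and no peak in the treated ones. The lowest total that was called anywhere in bryostatin replicates 1, 2 and 3 was 85.8, 36.2 and 31.9 RPKM kb. All 3 untreated values at EGR1 lie above these, so a region with the untreated level would have been above the weakest called peaks in each treated library. RCN3, which encodes a calcium-binding protein of the endoplasmic reticulum (chr19:49523951-49527430), had 117, 92.5 and 130 RPKM kb, also above all 3. The others were lower. SLC45A3, a solute carrier gene (chr1:205678791-205682410), had 105, 80.8 and 80.2 RPKM kb, NFATC1, a calcium-regulated transcription factor gene (chr18:79391821-79395580), 94.3, 79.0 and 72.5, and FCGRT, the neonatal Fc receptor gene (chr19:49512491-49515480), 62.7, 80.0 and 78.6. At these 3 at least 2 untreated values lay below the weakest peak of bryostatin replicate 1, so the absence of a peak from that library is not a measured difference there. The weakest called peaks of bryostatin replicates 2 and 3 lay below all untreated values at these 3 regions.

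The 5 gained regions lay inside RBFOX1, SLCO1B3 and ENSG00000269842 and far from starts near the lncRNAs ENSG00000261448 and ENSG00000289624. At RBFOX1, a splicing factor gene (chr16:5311501-5314830), the treated totals were 105, 94.9 and 47.7 RPKM kb. Bryostatin replicates 2 and 3 had between 34.8 and 48.7 RPKM kb at the other 4, and the weakest called peaks of untreated replicates 2 and 3 were at 74.4 and 70.6. The lowest peak called in untreated replicate 1 was at 34.0 RPKM kb, below every treated total in the 5 regions. At RBFOX1 the totals of bryostatin replicates 1 and 2 lay above the weakest peaks of all 3 untreated libraries. With the same number of strongest peaks taken from each library, 77 regions were lost and 27 gained, and EGR1 and RCN3 were among the lost ones.

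At gene starts, a peak within 1 kb was present in 3 untreated and 0 treated libraries for 4 of 19970 protein-coding genes (0.02%), SLC45A3, EGR1, NFATC1 and FCGRT. The opposite pattern was found for 0 genes. A peak was called in all 6 libraries at 1858 starts and in none at 16008. More untreated than treated libraries had a peak at 611 starts (3.06%), and more treated ones at 872 (4.37%). With equal numbers of peaks taken from each library the direction turned, with 670 and 331 starts. In that setting 15 starts were lost and 1 was gained, that of FAM90A22. EGR1 was the 1 start lost in both settings, since SLC45A3, NFATC1 and FCGRT kept a peak in 1 untreated library alone. Of the 15, 11 had a peak in 2 treated libraries when all peaks were used, BMI1 among them, and SPRED2, HOMER1 and ITGB2 had it in 1.

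Around the EGR1 start the marks were mapped by distance. In untreated REH the H3K27me3 peak over the start reached from -0.938, -1.23 and -0.478 kb to 6.15, 2.99 and 2.48 kb relative to it, and the gene is 3.82 kb long. H3K4me3 was called over the same start in all 6 libraries of that mark. Its peak ended 1.09, 0.901 and 0.751 kb after the start in untreated and 2.80, 2.43 and 2.99 kb after it in treated REH. The H3K4me3 peaks of the treated cells thus extended further into the gene, over the stretch that held H3K27me3 in the untreated ones. The H3K4me3 total was 1642, 1587 and 1283 RPKM kb untreated and 2048, 1830 and 2003 treated, a rise of 0.33 on the log2 scale (SE 0.07, limma adjusted p = 0.0312). The H3K4me2 total did not pass the test (0.13, SE 0.08, limma adjusted p = 0.68). H3K27me3 was called at the EGR1 start in 1 of 3 untreated and 0 of 3 treated libraries in NALM6 and likewise in Raji. Several of these libraries held few peaks. Replicate 1 of NALM6 had 1444 untreated and 590 treated. In Raji, untreated replicate 1 had 817 and bryostatin replicates 1 and 2 had 3413 and 2768, against 73180 in untreated replicate 3. The absence of a peak from such libraries is not a measured difference.

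H3K4me2 and H3K4me3 of the same cells were used to see where H3K27me3 lay at regions that changed in an activating mark. H3K4me2 rose in 153 of 10791 regions (1.42%) and fell in 4 (0.0371%), and H3K4me3 rose in 59 of 7238 (0.815%) and fell in 62 (0.857%), at a limma adjusted p below 0.05. Among the 59 regions of higher H3K4me3, 13 had an H3K27me3 peak in at least 1 library, against 312 of the 7117 regions whose H3K4me3 was not called (4.38%). Of the 13, 6 had it in more untreated than treated libraries and 0 in more treated ones. The corresponding counts were 94 and 44 of the 312 (1.32% and 0.618% of the 7117), so the contrast is smaller among regions that carried the mark at all. Of the 153 regions of higher H3K4me2, 25 had an H3K27me3 peak in at least 1 library (16.3%). Of the 10634 regions not called, 1123 had one (10.6%). Among the 25, 10 had it in more untreated libraries (6.54% of the 153) and 0 in more treated ones. The counts were 227 and 122 of the 1123 (2.13% and 1.15% of the 10634). Here too the contrast is smaller among regions that carried the mark at all. A setting added after the data were seen left out untreated replicate 3 of H3K27me3. The share of libraries with a peak was then higher in untreated cells at 7 regions of higher H3K4me3 and 13 of higher H3K4me2. It was higher in treated cells at 0 of them. The counts at regions not called also rose in this setting, from 94 to 131 of 7117 for H3K4me3 and from 227 to 338 of 10634 for H3K4me2. In the other direction they were 59 and 140.

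The 6 regions of higher H3K4me3 were the starts of EGR1, FOS, SPRED2, KCNS3, SIRPA and BMP2. FOS, a subunit of the AP-1 factor, had H3K27me3 in untreated replicates 1 and 3, with totals of 105 and 78.0 RPKM kb, and in 0 of 3 treated libraries. Its H3K4me3 total was 1452, 1249 and 1042 RPKM kb untreated and 2034, 2000 and 2097 treated (0.67, SE 0.07, limma adjusted p = 0.00057). SPRED2, an inhibitor of the Ras pathway, had H3K27me3 in 3 untreated and 1 treated library, with H3K4me3 higher by 0.42 (limma adjusted p = 0.0186) and H3K4me2 lower by 0.39 (-0.39, limma adjusted p = 0.0393). ITGB2, the beta chain of the LFA-1 integrin that binds ICAM1, had an H3K27me3 peak within 1 kb of a start in 3 untreated libraries and 1 treated library. Its H3K4me2 total was 2401, 2391 and 2261 RPKM kb against 4758, 4814 and 5294 (1.09, SE 0.08, limma adjusted p = 2.78e-05). At FCGRT, H3K4me2 rose by 0.79 (limma adjusted p = 0.000401). KCNS3 had H3K27me3 in 2 untreated and 0 treated libraries.

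**Figure D3:**
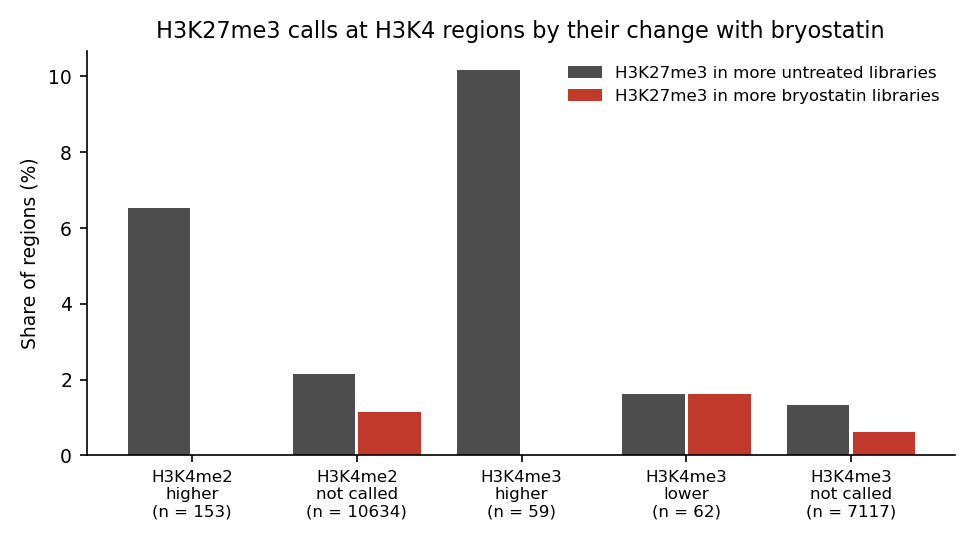
Share of H3K4me2 and H3K4me3 regions (%, y axis) with an H3K27me3 peak in more untreated (grey) or more treated libraries (red), for regions whose H3K4 signal was higher, lower or not called with bryostatin. Of the 59 regions of higher H3K4me3, 10.2% had H3K27me3 in more untreated libraries and none in more treated ones, and the group of 4 regions of lower H3K4me2 is not drawn.

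Of the 19 regions with a lower H3K27me3 maximum, 6 overlapped a tested H3K4me3 region, and H3K4me3 rose at 4 of them. At AHNAK the H3K4me3 total was 618, 614 and 362 RPKM kb untreated and 1256, 1484 and 1612 treated (1.43, SE 0.15, limma adjusted p = 0.000422). FHOD1 had 1487, 1603 and 1168 RPKM kb against 2716, 2950 and 2695 (0.93, SE 0.08, limma adjusted p = 0.000123). HMGA2 rose by 0.80 and the start shared by WDR59 and ZNRF1 by 0.42. At BCL2L11 the H3K4me3 difference was -0.01 (limma adjusted p = 0.963). H3K4me2 was tested at 16 of the 19 and rose at 4, TMEM233 (0.96), the region near LINC02038 (0.73), VGF (0.60) and RASD2 (0.50). Over all tested H3K27me3 regions, 656 overlapped a tested H3K4me2 region, which rose at 12 and fell at 0. Likewise 150 of the 8319 overlapped a tested H3K4me3 region, which rose at 6 and fell at 3.

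Gene lists are given by the share of starts with a peak and by the total signal of tested start regions, against all genes. Over all 19970 genes, 3962 had a peak at a start (19.8%). Each gene was assigned the tested region of highest total within 1 kb of a start, which gave 1917 regions with a median of -0.16 (1373 below 0). Without untreated replicate 3 that median was 0.07. Leaving out that library turned the sign of most list medians, to 0.15 for HOX cluster genes, 0.08 for developmental transcription factors, 0.11 for T cell genes, 0.14 for myeloid genes, 0.06 for erythroid and megakaryocyte genes, 0.11 for germinal centre and plasma cell genes and 0.13 for NK and T cell ligand genes. The medians of protein kinase C response genes (-0.19, 3 regions) and adhesion genes (-0.17, 1 of 2 regions below 0) stayed below 0. So did those of writers and erasers of H3K27 methylation (-0.049, 1 of 2) and of diacylglycerol receptors and kinases (-0.0075, 4 of 7). Among 41 protein kinase C response genes, 11 had H3K27me3 at a start in at least 1 library. More untreated libraries had a peak at 5 of them, EGR1, FOS, FOSB, ATF3 and SPRED2, and more treated ones at FOSL1 and DUSP4. Over all genes these shares were 3.06% and 4.37%, and 3.36% and 1.66% with equal numbers of peaks. FOSB rested on 1 untreated library, FOSL1 and DUSP4 on 1 treated library each, and all 3 had no peak with equal numbers of peaks. ATF3 had it in 3 untreated and 2 treated libraries. Start regions of 3 were tested, with a median log2 difference of -0.64, and 0 passed the adjustment. The highest of these, DUSP5, a phosphatase gene of the MAP kinase pathway (chr10:110467061-110531800), had 4684, 4586 and 5549 RPKM kb untreated and 3810, 4115 and 4043 treated, where the groups overlapped after centring on the library medians. SPRY4, a feedback inhibitor of receptor tyrosine kinases (chr5:142318801-142344020), had 2235, 2242 and 3057 RPKM kb against 1426, 1682 and 1986 (-0.67, SE 0.30, limma adjusted p = 1), while its H3K4me2 rose from 1013, 963 and 805 RPKM kb to 1805, 1867 and 1865 (limma adjusted p = 5.19e-05). NR4A2, an orphan nuclear receptor gene, had 289, 311 and 441 RPKM kb against 242, 204 and 264.

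In domains of development and of other lineages 0 regions passed the adjusted threshold. Of 39 HOX cluster genes 15 had a peak at a start and 11 had it in all 6 libraries. The region from HOXC6 to HOXC11 (chr12:53964241-54015710) had 3699, 3757 and 4535 RPKM kb untreated and 3594, 3420 and 4153 treated, and that of HOXB7 to HOXB9 (chr17:48607861-48629920) 3318, 3350 and 5531 against 2943, 3272 and 4113. The groups overlapped at both, and the 5 HOX regions had a median of -0.24. Of 105 developmental transcription factors 47 had a peak and 30 regions were tested, with a median of -0.17 and 24 below 0. The highest, DLX1 and DLX2 (chr2:172080771-172104310), had 5956, 5997 and 9608 RPKM kb against 4970, 5462 and 6598.

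T cell genes carried the mark at 8 of 22 starts and myeloid genes at 7 of 22, with medians of -0.32 and -0.08 over 6 and 4 regions. CD4 (chr12:6813581-6835170) had 4260, 4728 and 6084 RPKM kb untreated and 3545, 4456 and 4362 treated, and the groups overlapped. CEBPD, a myeloid transcription factor gene (chr8:47735851-47739300), had 207, 192 and 212 RPKM kb against 125, 111 and 106, with all treated libraries lower (-0.95, SE 0.30, limma adjusted p = 1). Precursor B cell genes had a peak at 2 of 28 starts, IKZF3 and ERG, in 2 libraries of each group. Erythroid and megakaryocyte genes had it at 10 of 17, with GATA2 and GFI1B tested and a median of -0.36. Germinal centre and plasma cell genes had it at 5 of 17, with a median of -0.38 over 3 regions. IRF4, a factor of plasma cell differentiation (chr6:390301-395170), had 609.5, 607 and 986 RPKM kb against 474, 456 and 612 (-0.60, SE 0.33, limma adjusted p = 1).

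Genes of diacylglycerol signalling, which include targets of the drug, and the writers of the mark were examined last. Of 30 genes for protein kinase C, other diacylglycerol receptors and diacylglycerol kinases, 11 had a peak and 7 regions were tested, with a median of -0.40. The kinase genes DGKG and DGKZ were among the 7. UNC13A, a priming factor of synaptic vesicles (chr19:17675541-17689360), had 1041, 1115 and 1156 RPKM kb untreated and 786, 815 and 822 treated, without overlap (-0.56, SE 0.25, limma adjusted p = 1). PRKCZ, an atypical kinase that diacylglycerol does not activate, had 2336, 2650 and 3846 RPKM kb against 2069, 2444 and 3015. Among the 23 matched writers and erasers of H3K27 methylation, 4 had a peak, among them CBX8 and BMI1, which encode subunits of Polycomb repressive complex 1, the complex that binds the mark. The CBX8 region (chr17:79797001-79810910) had 554.5, 595 and 577 RPKM kb untreated and 525, 446 and 629 treated, and the groups overlapped (-0.23, SE 0.25, limma adjusted p = 1). Adhesion genes had a peak at 7 of 26 starts and a median of -0.43 over 2 regions, ITGA3 (-0.15) and ITGB3 (-0.71). NK and T cell ligand genes had a peak at 4 of 29, with NECTIN1 at -0.18 and ULBP2 at 0.03. Cyclin-dependent kinase inhibitors had a peak at 1 of 7 starts, CDKN1C, and housekeeping genes at 1 of 18, ACTB, with none tested. Within 1 kb of the starts of CD22, ICAM1, ICAM2, HLA-G, PLEK and HDAC9 all 6 libraries lacked an H3K27me3 peak. Within 5 kb of the HLA-G start a peak was called in 2 untreated libraries and 1 treated library. Over all 14 lists 0 start regions passed the limma adjustment and 4 had an unadjusted p below 0.05. The lists held 0 to 30 tested regions each. Of all 8319 tested regions, 216 had an unadjusted limma p below 0.05, 2.08% lower and 0.517% higher. Whether the lists exceed that share was not tested.

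The response of REH was compared with that of NALM6, another precursor B cell leukemia line, and Raji, a Burkitt lymphoma line, by an interaction term in limma over 12 libraries. Against NALM6, 144 regions were called in all 12 libraries and 0 differed at an adjusted p below 0.05 (3 at an unadjusted p below 0.05). Against Raji, 303 regions were compared, and 0 differed (7 unadjusted). Replicate 1 of NALM6 was deposited in another scaling of the signal, and without replicate 1 of both lines 1770 and 856 regions were compared with 0 past the adjusted p (60 and 52 unadjusted). APCDD1 had a peak in 0 of 6 NALM6 libraries and 1 of 3 untreated Raji libraries, and SORD and HMGA2 had none in the 12 libraries of both. Whether the difference at these 3 regions is particular to REH was therefore not tested. VGF was called in all 6 libraries of Raji.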

How the data were processed

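Cut&Tag libraries were analysed from the peak files the authors deposited, 1 per library. Per the labels and the study's methods, reads were trimmed with Trim Galore and aligned to hg38 with Bowtie2, coverage was normalized by RPKM, and SEACR called stringent peaks in each library. Tool versions, the SEACR threshold and the use of the IgG libraries as its control are not given in the sources used here. The deposited values are the total signal and the maximum signal (RPKM coverage) of each peak, so levels outside called peaks are unknown. RPKM scales each library to its own reads and does not measure a global change of the mark. Signal over other chromosomes was left out. Depth was recovered from the step of the RPKM values.

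Peaks sharing at least 1 bp were merged, and totals were summed per region. Differences were tested with limma 3.58.1 (R 4.3.3, lmFit and eBayes with trend) on log2 values centred on the median of the library, with Benjamini-Hochberg adjustment over all tested regions and a threshold of 0.05. Called length was tested without centring. Library measures were compared by exact two-sided permutation. The scripts were tested on simulated data. Genes are GENCODE genes, and a start was counted with a peak within 1 kb. Regions were named if they were the 5 lower or 5 higher of smallest p, passed the maximum test, were lost or gained in all libraries, were the 10 of highest signal, or were the highest of a gene list. Genes outside that rule were chosen after their values were seen. The members and lists were chosen with earlier results of these data known. Some genes of the lists are not reported here.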

Additional observations from a re-analysis of the deposited data

How the results depend on the processing

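The number of regions past the adjusted p on total signal, 0 as reported, was 29 with depth as a covariate, 20 for the maximum signal, 2 after quantile normalization, 3 in regions called in at least 3 libraries, and 0 to 6 with a library left out (4 without untreated replicate 1, 6 without untreated replicate 3). With a replicate block it was 16. Deviations from the group means correlated at -0.156, 0.104 and 0.0386 between libraries of the same number and at -0.203 to 0.102 between those of different numbers. With 3 libraries per group this cannot settle whether the numbers pair them. Called length gave 0 regions in all its alternatives. The 20 regions of the maximum signal became 11 to 24 with a library left out, 11 without bryostatin replicate 2 or 3 and 12 without untreated replicate 2. The 5 lower regions stayed below 0 in 73 of 73 alternatives and passed the adjusted p in 28. As their groups do not overlap, leaving out a library could hardly turn the sign.

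Presence moved with the calling and more so with single libraries. Lost regions numbered 77 with equal numbers of peaks, 1 in the stronger peaks of each library, 13 in 10 kb bins, and 5 to 144 with a library left out, the highest without untreated replicate 3. Gained regions numbered 27, 0 and, with peaks within 5 kb joined, 1, and 5 to 1142 with a library left out (1142 without untreated replicate 1, 566 without bryostatin replicate 1). Lost starts numbered 15 with equal numbers of peaks and 4 to 21 with a library left out (21 without untreated replicate 3). Gained starts numbered 1 and 0 to 64 (64 without untreated replicate 1). Regions of higher H3K4me2 and H3K4me3 with more untreated H3K27me3 calls stayed within 1.5 times. With equal numbers of peaks they were 8 of the 20 with a peak for H3K4me2 and 5 of the 10 for H3K4me3. More treated calls were found at 0. At regions not called, more untreated and more treated calls were then found at 246 and 24 of 879 for H3K4me2. For H3K4me3 they were found at 89 and 10 of 220. Regions not called thus also leaned to untreated cells in that setting.

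Bryostatin minus untreated differences between libraries were 7311 peaks (1875 to 17394 with a library left out), -11.3 Mb called (-52.4 to 40.3, and 1.74 without bryostatin replicate 1), -0.0253 RPKM Gb of total signal (-0.770 to 1.07, and 0.537 without bryostatin replicate 1) and -11.3 RPKM (-26.2 to 10.1, positive without untreated replicate 3). Of the 5 higher regions, LINC01648 turned to -0.25 for the maximum and -0.085 for the mean signal per base, ENSG00000284739 to -0.076 for the mean, and KIR3DL1 to -0.086 and -0.52. The cause was not tested. Levels below the weakest called peak of a library are unknown, which limits every loss or gain.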
